A study of Homo sapiens with 6 samples.

Results

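The nucleoporins and the nuclear transport receptors were followed in MDA-MB-231 shBry cells and MDA-MB-231 shNC cells. Members were taken by gene symbol alone: the numbered NUP symbols, the importin alpha genes KPNA1 to KPNA7, the numbered IPO importins, the exportins XPO1 to XPO7, and a named set made of KPNB1, TNPO1, TNPO2, TNPO3, RAN, RANBP1, RANBP2, RANGAP1, RCC1, POM121, NDC1, AAAS, TPR, SEH1L, CSE1L and RAE1. Of the 54259 symbols of the count table, 57 met this rule, after 7 pseudogenes (NUP210P1, NUP210P2, NUP210P3, NUP50P1, NUP50P2, NUP50P3 and NUP58P1) were left out. The members are 29 nucleoporins, 24 transport receptors and 4 genes of the Ran cycle. No expression value entered the rule, though the members were chosen with earlier results of these data known.
The nuclear pore complex is a large ring of nucleoporins set into the nuclear envelope. Its Y complex and inner ring form the scaffold, membrane nucleoporins anchor it, and nucleoporins rich in phenylalanine-glycine (FG) repeats fill the channel and slow the passage of large molecules. Importins carry proteins inward and exportins carry proteins and RNA outward, and the small GTPase RAN, bound to GTP in the nucleus and to GDP in the cytoplasm, sets the direction in which they load and release cargo. In dividing cells the pore is taken apart in mitosis and built again afterwards, and several nucleoporins and RAN also act at kinetochores or on the spindle.
The RNA-Sequence data comprised 3 shBry libraries and 3 shNC libraries. MDA-MB-231 is a long-established line of human breast cancer cells. In shBry cells a short hairpin RNA targets brachyury and in shNC cells a control hairpin is present, with no other genetic change or agent named. How many hairpins were used, and whether each line was a clone or a pool, is not given in the sources used here, and nothing says that the libraries of a group came from separate cultures, so p-values measure the spread between these libraries, which may be technical. The comparison asks how transcript levels differ between cells with the brachyury hairpin and cells with the control hairpin.
The libraries held 19319411 to 22985371 counts. Brachyury, listed under its older symbol T, had 0 counts in all 6 libraries, where a count of 0 allows at most 0.131 to 0.155 CPM (counts for each 1000000 counts of the library; 3 counts of the total, counting error only), so the knockdown could not be checked on its target. The breast line genes VIM, CD44, AXL, CAV1, KRT18 and KRT8 summed to 6690 to 7030 CPM in shNC and 5470 to 5840 CPM in shBry, with KRT8 (-1.90) and CAV1 (-1.11) called lower in shBry and CD44 (0.34) and AXL (0.33) lying higher. Of the luminal genes, ESR1 and PGR reached at most 1 count, GATA3 had 10.4 CPM in shNC and 13 CPM in shBry, and FOXA1 had 5.75 and 6.07 CPM. No leukocyte marker went above 5 counts. The deposited study description calls the RNA pericardial, whereas the sample labels name MDA-MB-231. Summed mesothelial markers, mostly MSLN, were at 40.2 to 42.1 CPM in shNC and 51.4 to 57.7 CPM in shBry, with LRRN4 called higher (0.76) and CALB2 called lower (-2.52) through 11.1 CPM in shNC replicate 3 against 1.37 in the other shNC libraries. Of 5 heart muscle markers, 3 were at 0. A list of 8 mitotic genes, chosen with earlier results of these data known, was called lower in 8 of 8, beside 15.2% of all tested genes. Its summed levels were 1260 to 1430 CPM in shNC and 571 to 586 CPM in shBry, and its part in the values below was not tested.
Within the groups, shBry replicate 2 and shNC replicate 3 stood apart from the other libraries of their group on the second principal component, which held 9.4% of the variance against 75.7% for the first. Calls that were lost without either library, and tests passed without the fold limit that were lost without either, are given with and without it below.

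A gene was called when its adjusted p (edgeR's quasi-likelihood test, Benjamini-Hochberg adjustment over all 15277 tested genes) was below 0.05 and its fold change above 1.5, which is 0.585 on the log2 scale. Log2 fold changes are shBry over shNC, SE stands for their standard error, and CPM are scaled by edgeR's TMM factors. Of the 57 members, 55 passed the filter on low counts. KPNA7 had counts in shNC replicate 2 alone (3 counts) and NUP210L in shNC replicate 3 alone (2 counts), so neither was tested.

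Most of the transport machinery kept its transcript level within the fold limit. Of the 55 tested members, 5 were called higher in shBry (KPNA4, XPO5, NUP160, TNPO1 and NUP35), 3 were called lower (NUP62, NUP85 and NUP205) and 47 were not called. The called members came to 14.5%, beside 32.4% of all tested genes. Those called higher were 9.09% of the members beside 17.1% of all genes, and those called lower 5.45% beside 15.2%. With library offsets for transcript GC content, described below, 3 members were called higher and 5 lower. All tested genes shifted the same way, with 2360 called higher and 2447 lower, against 2620 and 2325 without the offsets.
Without the fold limit, 23 of 55 members (41.8%) had an adjusted p below 0.05, 13 of them higher and 10 lower, beside 53.3% of all tested genes. Of these 23, 15 passed in every fit that left out 1 library, and NDC1, NUP153, NUP210, NUP35, RANBP2, RCC1, TNPO2 and XPO7 did not. In 22 members (40%) the 3 shBry values did not overlap the 3 shNC values, beside 59.5% of all tested genes. The members' log2 fold changes ran from -0.81 to 1.06, with a median of 0.06 beside 0.03 for all tested genes. With the GC offsets the median became -0.03 for the members and -0.01 for all tested genes. The median size of the change, ignoring its sign, was 0.24 beside 0.42 for all tested genes. The summed CPM of the members was 7080, 7060 and 7460 in shNC replicates 1, 2 and 3 and 7390, 7360 and 7410 in shBry replicates 1, 2 and 3, so the sums of the groups overlapped. In bulk samples such as these, fewer cells of a state and less RNA per cell cannot be told apart.

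**Figure D1:**
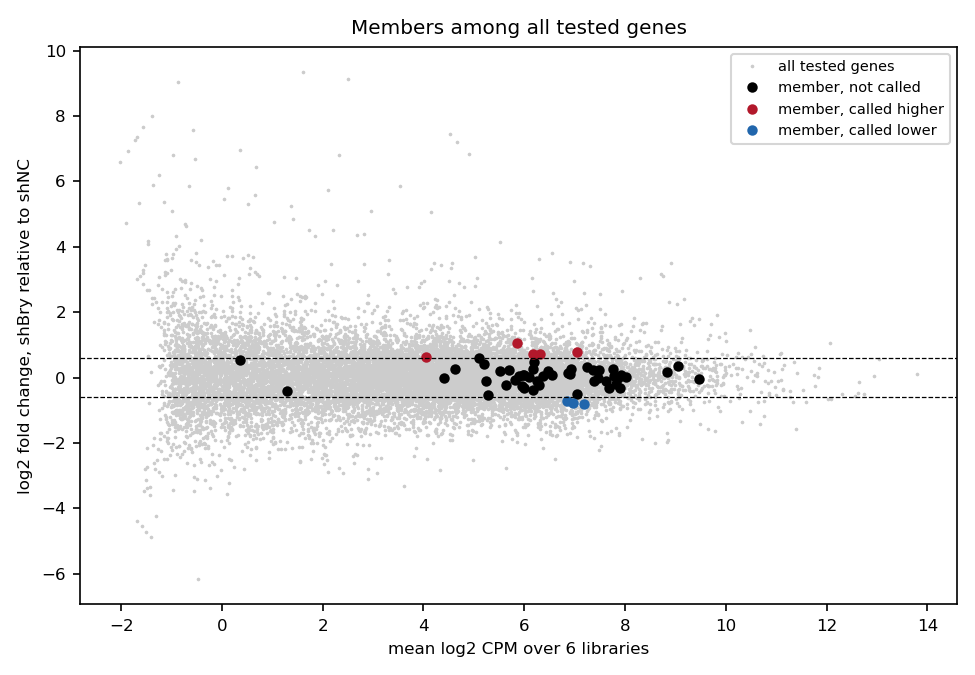
Log2 fold change of shBry relative to shNC (vertical axis) against the mean log2 CPM over the 6 libraries (horizontal axis), with 1 point per tested gene: grey for all 15277 genes, black for members not called, red for the 5 members called higher and blue for the 3 called lower. The dashed lines mark the fold limit of 1.5 on the log2 scale, and the members lie between -0.81 and 1.06, in the dense middle of the cloud of all genes.

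**Figure D2:**
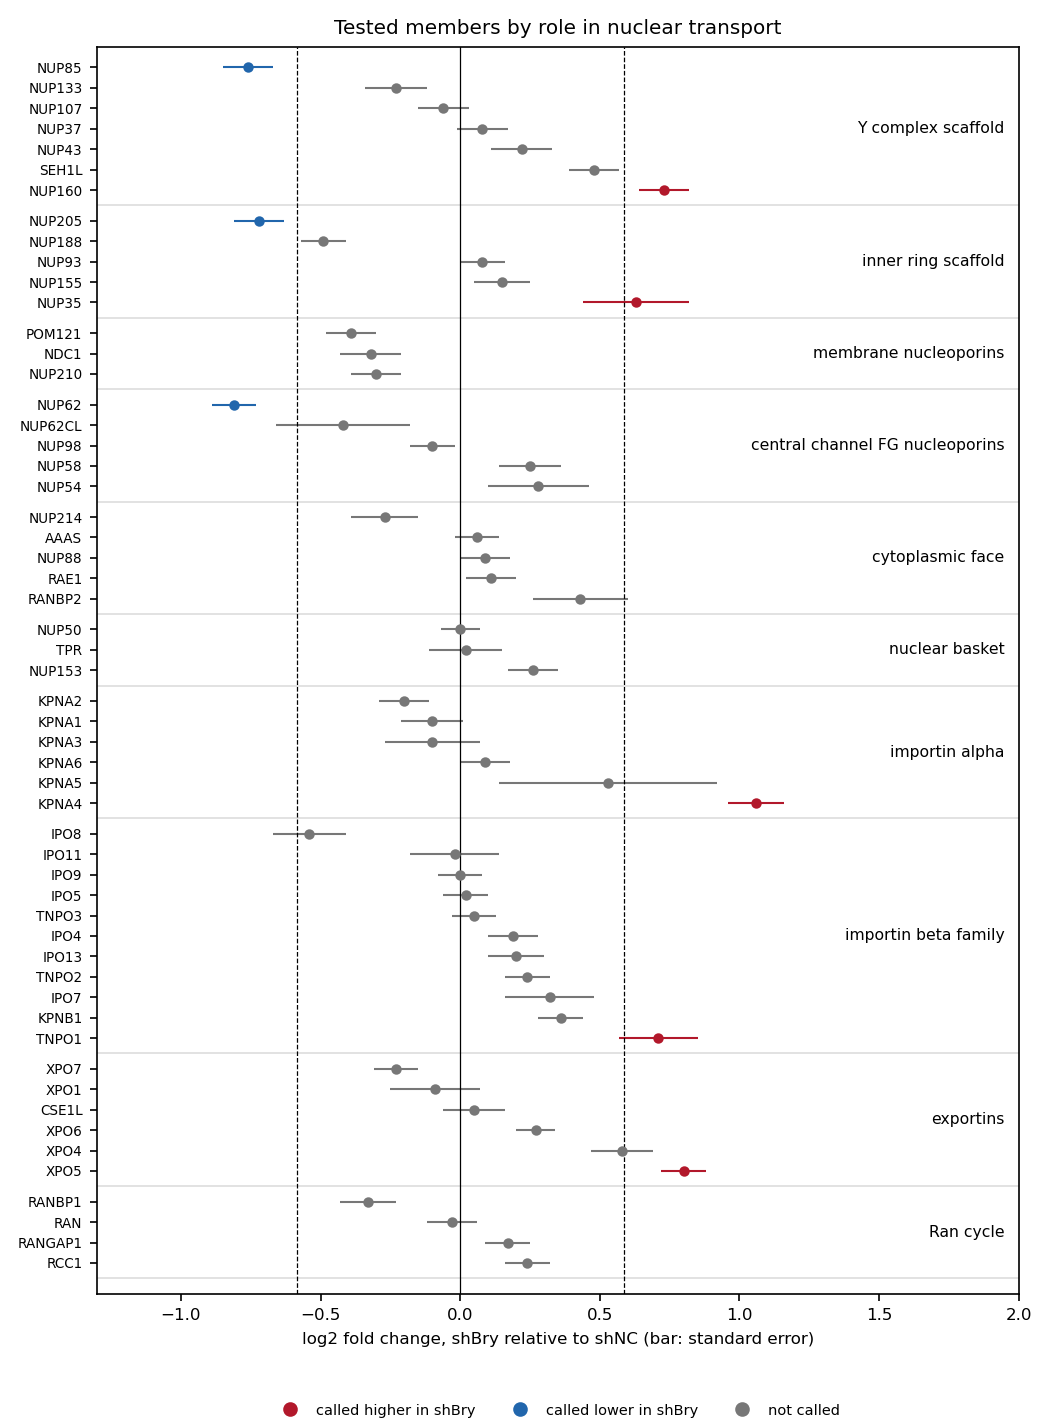
Log2 fold change of the 55 tested members, grouped by their place in the pore or their role in transport, with the standard error as a bar and the fold limit of 1.5 as dashed lines. The scaffold groups and the central channel hold the 3 members called lower, and members called higher and lower stand in the same group in both the Y complex and the inner ring.

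The promoters of 5 members are shown, those of NUP62, NUP85 and NUP205, called lower, and of XPO5 and NUP160, called higher. With KPNA4 these are the 6 members whose call held whichever library was left out. Each is 300 bases long, from 250 before to 50 after the transcription start, from RefSeq on GRCh38.p14, written 5′ to 3′ on the gene's strand. Capitals mark every match, on either strand, to the motifs searched in them: E2F (TTTCCCGC or TTTGGCGC), E-box (CACGTG), the cell cycle element CHR (TTTGAA), the NRF1 core (CGCATGCG), CRE (TGACGTCA), the CCAAT box (CCAAT), ETS (CCGGAAG) and a T-box element (TCACACCT).
NUP62 promoter, chr19:49929455-49929754, minus strand: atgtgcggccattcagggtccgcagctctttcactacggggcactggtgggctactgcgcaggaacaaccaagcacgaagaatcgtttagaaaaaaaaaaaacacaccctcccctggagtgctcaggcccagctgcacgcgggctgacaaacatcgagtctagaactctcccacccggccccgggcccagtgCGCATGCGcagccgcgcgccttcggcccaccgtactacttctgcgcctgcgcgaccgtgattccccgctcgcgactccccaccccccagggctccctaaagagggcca
NUP85 promoter, chr17:75205429-75205728, plus strand: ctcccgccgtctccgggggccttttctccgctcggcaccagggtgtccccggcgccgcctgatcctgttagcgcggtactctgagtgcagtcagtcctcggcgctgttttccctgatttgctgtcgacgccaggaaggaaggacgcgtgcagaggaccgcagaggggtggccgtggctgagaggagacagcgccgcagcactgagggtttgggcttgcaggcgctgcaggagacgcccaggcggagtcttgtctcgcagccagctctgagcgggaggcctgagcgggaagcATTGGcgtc
NUP205 promoter, chr7:135557667-135557966, plus strand: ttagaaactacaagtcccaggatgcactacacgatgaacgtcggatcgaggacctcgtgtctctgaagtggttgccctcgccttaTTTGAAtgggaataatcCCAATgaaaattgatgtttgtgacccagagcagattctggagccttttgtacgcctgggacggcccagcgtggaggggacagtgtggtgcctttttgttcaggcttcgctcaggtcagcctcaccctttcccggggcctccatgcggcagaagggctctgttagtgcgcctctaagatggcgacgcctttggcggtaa
XPO5 promoter, chr6:43575989-43576288, minus strand: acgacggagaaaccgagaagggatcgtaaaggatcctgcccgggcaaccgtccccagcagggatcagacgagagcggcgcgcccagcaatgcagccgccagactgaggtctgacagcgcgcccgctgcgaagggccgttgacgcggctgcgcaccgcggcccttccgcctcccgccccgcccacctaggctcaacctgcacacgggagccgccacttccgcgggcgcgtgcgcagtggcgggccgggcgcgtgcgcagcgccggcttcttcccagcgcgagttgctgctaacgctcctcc
NUP160 promoter, chr11:47848301-47848600, minus strand: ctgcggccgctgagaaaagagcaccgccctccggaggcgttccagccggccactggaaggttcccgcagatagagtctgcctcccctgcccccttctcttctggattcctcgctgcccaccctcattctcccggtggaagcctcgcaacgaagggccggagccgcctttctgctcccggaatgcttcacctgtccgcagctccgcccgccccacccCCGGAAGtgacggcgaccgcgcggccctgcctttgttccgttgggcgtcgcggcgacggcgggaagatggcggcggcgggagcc
The NUP62 promoter held the NRF1 core, NUP85 a CCAAT box on the opposite strand, NUP205 a CHR and a CCAAT box, and NUP160 an ETS match, while XPO5 held none of the motifs. RefSeq promoters were matched for 50 of the 57 members. RANBP1, NUP43, XPO7, KPNA4, KPNA5, KPNA7 and KPNB1 had no entry.
Over the matched members, CHR letters stood in 11 promoters (22%), beside 9.47% of the 10516 promoters of tested genes and 15.4% of all 27305 promoters. ETS letters stood in 15 (30%, beside 18.6% and 10.7%), CCAAT in 22 (44%, beside 36.3% and 35.7%), E-box letters in 7 (14%, beside 10.2% and 7.43%) and the NRF1 core in 4 (8%, beside 3.78% and 2.19%). CRE letters stood in 3 (6%, beside 3.2% and 1.98%) and E2F letters in 1 (2%, beside 3.77% and 2.31%), that of NUP155. The T-box letters were in 0 of the 50, beside 0.704% and 0.982%. These matches are letters in a window and were not tested as sites.

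The Y complex, the outer scaffold that is also needed to build new pores, held a member on each side. NUP85 (chr17:75205659-75235758 of GRCh38, plus strand, GENCODE 29), which forms an arm of the Y with SEH1L, had 160, 168 and 162 CPM in shNC replicates 1, 2 and 3 and 105, 87.3 and 96.4 CPM in shBry replicates 1, 2 and 3. Every shBry value was below every shNC value. The means were 163 ± 4.17 and 96.2 ± 8.83 CPM (SD, n = 3), and the log2 fold change was -0.76 (SE 0.09, edgeR adjusted p = 4.4e-06), 1.7-fold lower in shBry. No exon base of NUP85 lies in another gene and none of its 50-base stretches is shared.
NUP160 (chr11:47778087-47848555, minus strand), the core of the other arm, moved the other way. It had 52.2, 54.5 and 61.1 CPM in shNC and 84.2, 97.2 and 97.5 CPM in shBry, again with no overlap. From 55.9 ± 4.6 to 93 ± 7.6 CPM (SD, n = 3), its log2 fold change was 0.73 (SE 0.09, edgeR adjusted p = 1.6e-05), 1.66-fold higher. SEH1L, which sits on NUP85 and also belongs to a nutrient-sensing complex, had a log2 fold change of 0.48 (adjusted p = 0.00042), higher in shBry but within the fold limit. The other Y subunits NUP133 (-0.23), NUP107 (-0.06), NUP37 (0.08) and NUP43 (0.22) did not pass the test.

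The inner ring, the scaffold that holds the channel nucleoporins in place, was divided in the same manner. NUP205 (chr7:135557919-135648757, plus strand), a large solenoid protein of the ring, had 146, 138 and 163 CPM in shNC and 87.2, 85.6 and 99 CPM in shBry. The groups did not overlap, and with means of 149 ± 12.8 and 90.6 ± 7.34 CPM (SD, n = 3) the log2 fold change was -0.72 (SE 0.09, edgeR adjusted p = 1.5e-05), 1.64-fold lower. Its paralogue NUP188, the inner ring member with the most CPM per kilobase over the 6 libraries (NUP93 was above it in shBry), had 165, 150 and 154 CPM in shNC and 118, 109 and 107 CPM in shBry. NUP188 also had no overlap between groups, with a log2 fold change of -0.49 (SE 0.08, adjusted p = 0.00014), within the fold limit.
NUP35 (chr2:183117513-183161680, plus strand), a small ring subunit that touches the membrane, had 9.16, 13.3 and 18.2 CPM in shNC and 19.8, 22 and 21 CPM in shBry. The lowest shBry value was above the highest shNC value by less than the spread within shNC. Its log2 fold change was 0.63 (SE 0.19, edgeR adjusted p = 0.012), from 13.5 ± 4.51 to 20.9 ± 1.14 CPM (SD, n = 3). Without shNC replicate 1 the call was lost (0.41, adjusted p = 0.051), as it was without shBry replicate 2 (0.58, adjusted p = 0.012), and without shNC replicate 3 the log2 fold change was 0.88. NUP93, the linker that recruits the channel trimer, stayed at 236 ± 8.76 and 250 ± 15.6 CPM (SD, n = 3; log2 fold change 0.08, adjusted p = 0.38), and NUP155, which binds the membrane, had 0.15 (adjusted p = 0.25).

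Among the membrane nucleoporins, the 3 tested members had adjusted p-values below 0.05, which 53.3% of all tested genes had, and lay lower in shBry, none past the fold limit. NUP210, a glycoprotein of the pore membrane and the member of this group with the most CPM per kilobase, had 255, 210 and 226 CPM in shNC and 182, 203 and 175 CPM in shBry. Its groups did not overlap, though shBry replicate 2 and shNC replicate 2 were close, and its log2 fold change was -0.30 (SE 0.09, adjusted p = 0.012). POM121, which takes part in early pore assembly, had -0.39 (adjusted p = 0.0015), and NDC1, a membrane anchor, -0.32 (adjusted p = 0.027) with groups that overlapped. NDC1 no longer passed without shNC replicate 3 (-0.24, adjusted p = 0.1), shBry replicate 1 (adjusted p = 0.093) or shBry replicate 3 (adjusted p = 0.074), and NUP210 no longer passed without shNC replicate 1 (adjusted p = 0.071) or shBry replicate 3 (adjusted p = 0.067). POM121 shares 37.7% of its 50-base stretches with other genes, mainly POM121C, which itself had a log2 fold change of -0.56 (adjusted p = 7.6e-05), so their reads could not be told apart with certainty.

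The central channel held NUP62, whose fall was similar in size to those of NUP85 and NUP205. NUP62 (chr19:49906825-49929763, minus strand), the FG nucleoporin at the core of the channel trimer, had 198, 190 and 194 CPM in shNC and 117, 106 and 109 CPM in shBry. The groups lay far apart for their spread. Means were 194 ± 4.25 and 111 ± 5.67 CPM (SD, n = 3), and the log2 fold change was -0.81 (SE 0.08, edgeR adjusted p = 1e-06), 1.75-fold lower. Exons of other genes overlap 21.1% of its exon bases, among them ATF5 on the opposite strand and IL4I1 on the same strand. ATF5 was at 24.2 ± 2.55 CPM in shNC and 19.3 ± 2.35 CPM in shBry and IL4I1 at 1.52 ± 0.362 and 1.5 ± 0.546 CPM (SD, n = 3), both far below NUP62 itself, and their part in its value was not tested.
The partners of NUP62 in the trimer, NUP58 and NUP54, had log2 fold changes of 0.25 (adjusted p = 0.073) and 0.28 (adjusted p = 0.21), which did not pass the test. NUP98, whose transcript also encodes the Y complex subunit NUP96, had -0.10 (adjusted p = 0.33), and the low-level NUP62CL, related to NUP62 in sequence, had -0.42 (adjusted p = 0.16) at 1.77 to 3.21 CPM.

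At the cytoplasmic face and in the nuclear basket no member was called. RAE1, an mRNA export factor that binds NUP98, had 112, 115 and 119 CPM in shNC and 134, 107 and 132 CPM in shBry, where the groups overlapped (log2 fold change 0.11, SE 0.09, adjusted p = 0.33). RANBP2, the SUMO ligase of the cytoplasmic filaments, had 0.43 (adjusted p = 0.042) with overlapping groups and 27.1% of its stretches shared with the RGPD genes, and without shBry replicate 2 it had 0.17 (adjusted p = 0.26). RANBP2 also did not pass without shNC replicate 1 (adjusted p = 0.16) or shNC replicate 2 (adjusted p = 0.14). NUP214, NUP88 and AAAS had -0.27, 0.09 and 0.06 and did not pass the test.
In the basket, NUP50, which helps importin alpha release its cargo, had 235, 225 and 241 CPM in shNC and 243, 226 and 232 CPM in shBry. These values covered the same range, with a log2 fold change of 0.00 (SE 0.07). NUP153, a basket FG nucleoporin, had 0.26 (adjusted p = 0.03) with overlapping groups, and without shBry replicate 2 it had 0.18 (adjusted p = 0.12). NUP153 also did not pass without shBry replicate 3 (adjusted p = 0.072), shNC replicate 1 (0.081) or shNC replicate 2 (0.19). TPR, the coiled-coil filament protein of the basket, had 0.02 (adjusted p = 0.93).

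Importin alpha proteins read the classical nuclear localisation signal and bind importin beta. KPNA4 (chr3:160494995-160565588, minus strand), the importin alpha known for carrying NF-kappa-B subunits among other cargo, showed the largest change of any member. It had 38.3, 38.2 and 45.2 CPM in shNC and 75.9, 85.5 and 91.2 CPM in shBry. All shBry values were well above the shNC range. From 40.5 ± 4.03 to 84.2 ± 7.72 CPM (SD, n = 3), its log2 fold change was 1.06 (SE 0.10, edgeR adjusted p = 1.1e-06), 2.08-fold higher, and it was the only member past a fold limit of 2.
KPNA2, the most abundant importin alpha per kilobase, had 237, 226 and 262 CPM in shNC and 224, 189 and 218 CPM in shBry. The shBry values were all lower, by a log2 fold change of -0.20 that did not pass the test (SE 0.09, adjusted p = 0.069). KPNA1 (-0.10), KPNA3 (-0.10), KPNA6 (0.09) and the low-level KPNA5 (0.53, SE 0.39, and 0.03 without shBry replicate 2) did not pass it either. Per kilobase of transcript, KPNA4 made up 3.66%, 3.69% and 3.84% of the summed importin alpha level in shNC and 7.4%, 8.53% and 8.66% in shBry. KPNA2 made up 70.3%, 67.7% and 69.1% in shNC and 67.7%, 58.5% and 64.3% in shBry, so it remained the largest share in each library.

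The importin beta family carries cargo directly or through importin alpha. Its most abundant member per kilobase, KPNB1, had 476, 444 and 491 CPM in shNC and 630, 563 and 623 CPM in shBry. The groups did not overlap, and the log2 fold change of 0.36 (SE 0.08, adjusted p = 0.0015) was within the fold limit. TNPO1 (chr5:72816312-72916733, plus strand), the transportin for RNA-binding proteins, had 60.8, 56.8 and 70.6 CPM in shNC and 85.1, 129 and 93.5 CPM in shBry.
Here shBry replicate 2 stood above the other shBry libraries. From 62.7 ± 7.09 to 103 ± 23.4 CPM (SD, n = 3), the log2 fold change of TNPO1 was 0.71 (SE 0.14, edgeR adjusted p = 0.00054), 1.64-fold higher. Without shBry replicate 2 it was 0.50 (adjusted p = 0.00038), under the fold limit, and without shNC replicate 3 it was 0.78 (adjusted p = 0.0017). Its paralogue TNPO2 had 0.24 (adjusted p = 0.019), or 0.17 without shNC replicate 3 (adjusted p = 0.087). TNPO2 also did not pass without shBry replicate 3 (adjusted p = 0.093) or shNC replicate 2 (adjusted p = 0.067). TNPO3, which carries splicing factors, had 0.05 (adjusted p = 0.66).
IPO8, an importin also linked to Argonaute proteins, lay lower in shBry with a log2 fold change of -0.54 (adjusted p = 0.0033), within the fold limit. It had 41.4, 45.1 and 56 CPM in shNC and 28.6, 38.3 and 30.9 CPM in shBry, with no overlap, and without shBry replicate 2 its log2 fold change was -0.69, past the limit. Its paralogue IPO7, a carrier of ribosomal proteins, had 0.32 (adjusted p = 0.1). IPO4 (0.19), IPO5 (0.02), IPO9 (-0.00), IPO11 (-0.02) and IPO13 (0.20) did not pass the test. Exons of other genes, AL136295.4 on the same strand and REC8 on the other, overlap 70.1% of the exon bases of IPO4, and its value is uncertain for that reason.

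Of the exportins, XPO5 was called. XPO5 (chr6:43522330-43576075, minus strand) exports microRNA precursors. It had 106, 100 and 95.2 CPM in shNC and 187, 173 and 164 CPM in shBry, with a wide gap between the groups. Means of 101 ± 5.55 and 175 ± 11.5 CPM (SD, n = 3) gave a log2 fold change of 0.80 (SE 0.08, edgeR adjusted p = 2.3e-06), 1.74-fold higher.
XPO4 lay just inside the fold limit with 0.58 (adjusted p = 0.00053), from 27.9, 26 and 29.9 CPM in shNC to 39.1, 47.5 and 38.9 CPM in shBry, with no overlap. XPO6, the actin exporter, had 0.27 (adjusted p = 0.0064) and XPO7 had -0.23 (adjusted p = 0.035), which no longer passed without shBry replicate 2 (adjusted p = 0.051). XPO7 also did not pass without shBry replicate 1 (adjusted p = 0.075), shBry replicate 3 (0.067) or shNC replicate 1 (0.13). XPO1 (CRM1), the receptor for leucine-rich export signals, had 161, 199 and 258 CPM in shNC and 152, 235 and 193 CPM in shBry. Its replicates spread more widely than its groups differed (log2 fold change -0.09, SE 0.16, adjusted p = 0.66). CSE1L, which returns importin alpha to the cytoplasm and had the most CPM per kilobase among the exportins, had 183, 220 and 249 CPM in shNC and 205, 250 and 219 CPM in shBry, which overlapped (log2 fold change 0.05, SE 0.11, adjusted p = 0.73).

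No Ran cycle gene was called, and RAN, RANBP1 and RANGAP1 had the most CPM per kilobase of all members when averaged over the 6 libraries. RAN had 700, 737 and 706 CPM in shNC and 755, 609 and 735 CPM in shBry. The shBry values lay on both sides of the shNC range (log2 fold change -0.03, SE 0.09, adjusted p = 0.79). RCC1, the chromatin-bound exchange factor that loads RAN with GTP, had 0.24 (adjusted p = 0.015), and RANBP1, a cofactor of GTP hydrolysis, -0.33 (adjusted p = 0.014), both without overlap and within the fold limit. RCC1 no longer passed without shBry replicate 1 (adjusted p = 0.059) or shNC replicate 2 (adjusted p = 0.053). RANGAP1, the GTPase activator, had 0.17 (adjusted p = 0.1). TRMT2A, called lower with -0.76 (adjusted p = 4.1e-05), overlaps 8.5% of the exon bases of RANBP1 on the opposite strand, and SNHG3, called higher with 0.67 (adjusted p = 8.5e-06), overlaps 6.22% of those of RCC1. Their part in these values was not tested.
Ordered by CPM per kilobase averaged over the 6 libraries, RAN came highest with 223, followed by RANBP1 (97.9), RANGAP1 (85.1), KPNB1 (78.4) and KPNA2 (78.1). The order of KPNB1 and KPNA2 turned between the groups, with 68.5 against 83.5 in shNC and 88.2 against 72.7 in shBry. KPNA2 was thus above RANGAP1 (80.1) in shNC, and KPNB1 and RANGAP1 (90.1) were above RANBP1 (86.7) in shBry. The lowest tested members were NUP62CL with 1.29 and KPNA5 with 0.113. The called members lay between NUP85 with 40.4, at rank 9 of 57, and KPNA4 with 6.95, at rank 49.

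**Figure D3:**
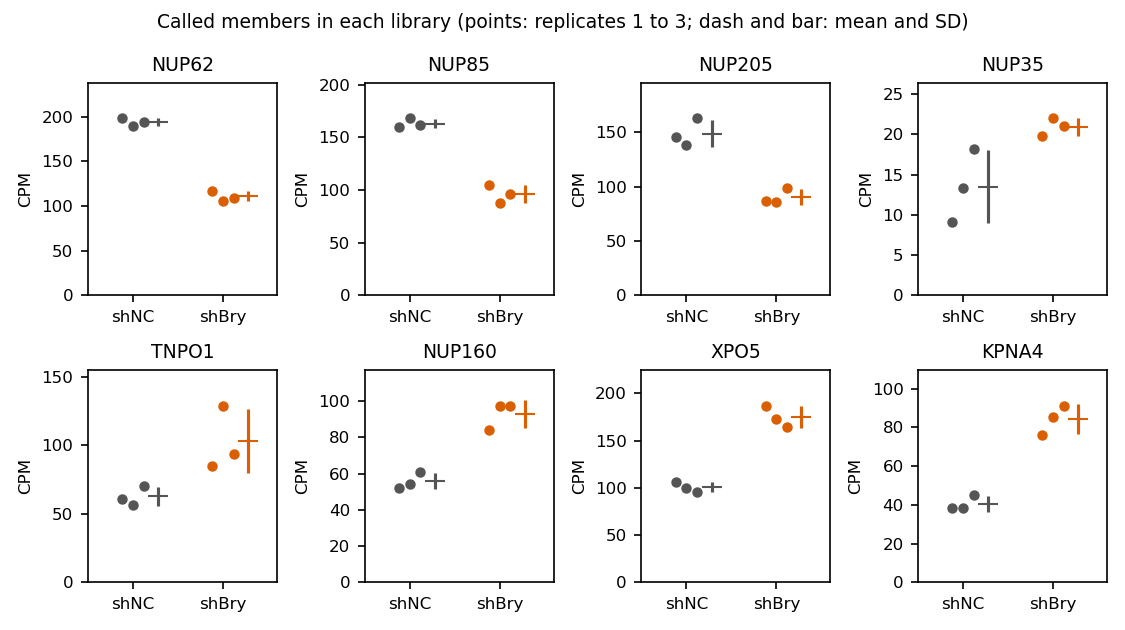
CPM of the 8 called members in each of the 3 shNC and 3 shBry libraries (points, replicates 1 to 3 from left to right), with the mean and SD of each group as a dash and bar, on axes that start at 0. The groups do not overlap in any panel, the gap is narrowest for NUP35, and shBry replicate 2 stands above its group in TNPO1 with 129 CPM.

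Ratios of CPM per kilobase between related members, such as proteins of 1 subcomplex, were computed in each library for 9 pairs. The pairs were chosen after the values were seen. Every pair holds a called member, so the differences restate the fold changes above and are not further evidence. NUP85/NUP160, within the Y complex, was 6.58, 6.61 and 5.69 in shNC and 2.68, 1.93 and 2.12 in shBry, a log2 difference of -1.50. NUP62/NUP58, within the channel trimer, was 5.1, 4.94 and 4.08 in shNC and 2.52, 1.87 and 2.42 in shBry, a log2 difference of -1.06. In both the groups were far apart.
NUP205/NUP35 differed by -1.40, NUP62/NUP54 by -1.11 and NUP205/NUP93 by -0.80 on the log2 scale. KPNA4/KPNA2 differed by 1.26, KPNA4/KPNA3 by 1.17 and XPO5/XPO1 by 0.89, all without overlap between groups. TNPO1/TNPO2 differed by 0.45 and overlapped. The two-sided exact permutation test gave p = 0.1 for each pair except TNPO1/TNPO2 (p = 0.2), and 0.1 is the smallest p that 3 libraries against 3 allow. After adjustment over the 9 pairs the values were 0.11 and 0.2, so no ratio could pass 0.05 in this design.

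**Figure D4:**
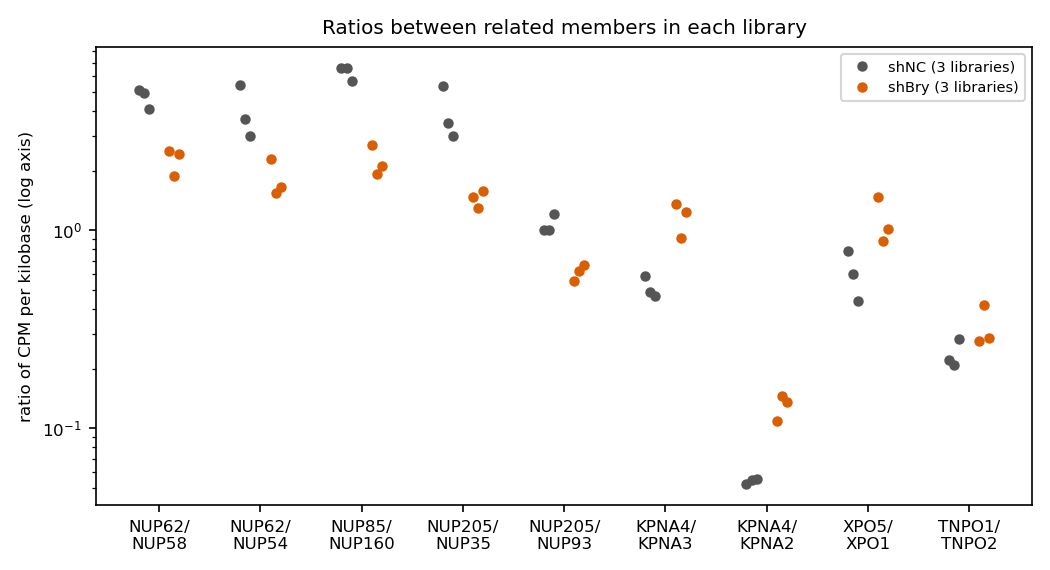
Ratio of CPM per kilobase between the members of each of the 9 pairs in every library, on a log axis, grey for shNC and orange for shBry. The shBry points lie below the shNC points for the NUP pairs and above them for KPNA4 and XPO5, and the groups overlap for TNPO1/TNPO2.

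For 1 pair of libraries in each group, the difference between replicates went with GC content over the members. In shBry replicate 2 relative to replicate 1, and in shNC replicate 3 relative to replicate 1, members with transcripts low in GC were higher. Over the 55 tested members, the differences of these 2 library pairs correlated with each other (r = 0.749) and with GC content (r = -0.651 in shBry and r = -0.726 in shNC). Each pair joins the 2 libraries furthest apart in their group on the second principal component, in the same direction. The correlation between the pairs is therefore partly set by their choice, and other pairs were not compared. The points share libraries and base composition, and genes are not independent replicates, so these values are a description. The log2 fold change between groups correlated with GC content at r = -0.331 over the same members, which have 34.4% to 59.4% GC.
With offsets for GC content fitted in each library, KPNA4 had a log2 fold change of 0.85, XPO5 0.78, NUP160 0.62, NUP62 -0.74, NUP85 -0.75 and NUP205 -0.80, and these 6 remained called. TNPO1 (0.44) and NUP35 (0.47), both low in GC, were no longer called, while IPO8 (-0.68, adjusted p = 2.7e-05) and NUP62CL (-0.61, adjusted p = 0.028) were called lower. The same 6 members were called in every fit that left out 1 library. The offsets followed each library's deviation from the mean of all 6 libraries, so they also remove GC-linked differences between shBry and shNC. Lower log2 fold changes of members low in GC are partly set by this construction.

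**Figure D5:**
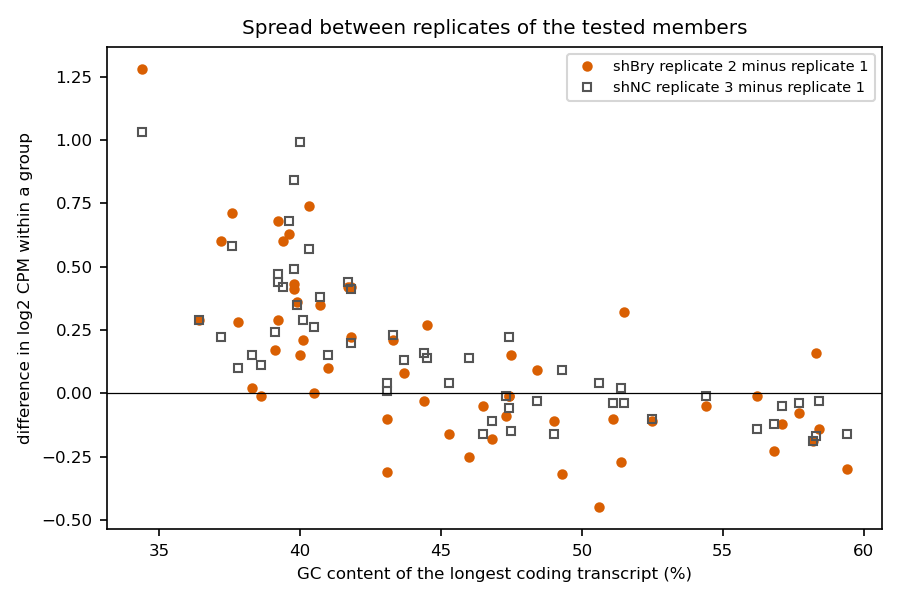
Difference in log2 CPM between replicates of the same group (vertical axis) against the GC content of the longest coding transcript in percent (horizontal axis) for the 55 tested members: filled points for shBry replicate 2 minus replicate 1, open squares for shNC replicate 3 minus replicate 1. In both groups members at the low end of GC content lie mostly above 0 and members at the high end mostly below it.

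The other transport genes were taken from a list of further nucleoporins, Ran and protein transport factors and mRNA export factors. Of its 44 symbols, 40 were tested. NUPL1, HIKESHI and UIF were not symbols of the count table, where HIKESHI stands as C11orf73, and DDX39B had 0 counts. Of the 40, 3 were called higher and 4 lower (17.5%, beside 32.4% of all tested genes). Another count, of those with an adjusted p below 0.05, was 19 (beside 53.3%), and the median log2 fold change was 0.05. Of the 19 mRNA export factors tested, 2 were called higher and 4 lower, a share of 31.6% that is near the 32.4% of all tested genes. CHTOP, an adaptor of the export complex TREX, rose with 1.05 (adjusted p = 8.2e-08), from 90.6 ± 2.53 to 188 ± 9.01 CPM (SD, n = 3).
Some of its TREX partners were called lower. ALYREF, which hands mRNA to the export receptor, fell with -0.90 (adjusted p = 8.7e-06), the helicase DDX39A with -0.66 (adjusted p = 4.4e-05), and THOC3 with -1.20 (adjusted p = 9.1e-08), although 55.9% of the stretches of THOC3 are shared with other genes. The other THO subunits were not called, with THOC1 at 0.21, THOC2 at -0.18, THOC5 at 0.17, THOC6 at -0.25 and THOC7 at 0.39. NXT2, a cofactor of the export receptor, fell with -0.60 (adjusted p = 0.021) at 4.2 to 9.82 CPM, while NXF1, the receptor itself, had 0.05 (adjusted p = 0.64). DDX19B, a helicase at the cytoplasmic face, rose with 0.75 (adjusted p = 9.5e-06) and shares 36% of its stretches, mainly with DDX19A.
XPOT, the exportin for tRNA that the symbol rule leaves out, rose with 0.99 (adjusted p = 6.6e-06), from 126 ± 19.8 to 249 ± 30.2 CPM (SD, n = 3). No nucleoporin outside the rule was called, although GLE1, an activator of DDX19 helicases, came close with -0.57 (adjusted p = 4.3e-05).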

How the data were processed

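RNA of 3 MDA-MB-231 shBry and 3 MDA-MB-231 shNC libraries, grouped by their labels, was sequenced for the authors on an Illumina instrument. The deposited table holds raw counts of reads per gene symbol, with no normalization. The submitters' processing notes name HISAT2 2.0.4, HTSeq and GRCh38. The annotation and the strand setting are not given in the sources used here, so reads of overlapping genes could be shared. The libraries held 19319411 to 22985371 counts, and libraries of a group differed by more than sampling noise (chi-square per degree of freedom 3.76 to 12.1). Limits set by counts of 0 cover counting error only.

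Low genes were removed by filterByExpr at a minimum count of 10 and library sizes were scaled by TMM. The groups were compared by edgeR 4.0.16 (R 4.3.3) with its quasi-likelihood test, on all 6 libraries without covariates. A call needed both an adjusted p under 0.05 and a fold change over 1.5, the limit in the study's methods. The standard error (SE) is the log2 fold change divided by the square root of F. The procedure was tested on simulated data. CPM per kilobase used the exon length of coding transcripts in GENCODE 29, matched by symbol for 57 of 57 members. Overlap is the share of exon bases in exons of other genes, and shared stretches are 50 bases long. Ratios were compared by an exact permutation test (scipy 1.17.1).

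The members and lists were chosen with earlier results of these data known. The rule that leaves out symbols ending in P and digits was read as a pseudogene suffix, since NUP50 and RANBP1 end that way themselves. Values in every library are given for called members and for the member with the most CPM per kilobase in each role. Those of IPO8, XPO4 and XPO1 were added after their values were seen. Of the other transport genes, the called ones are named, up to 8 by adjusted p, and all 7 called fell within that number. GLE1, NXF1, POM121C, DDX39B, the uncalled THO subunits and the nuclear envelope genes were named after their values were seen.

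Alternatives were library sizes without TMM, RLE size factors, DESeq2 1.42.0, limma-voom 3.58.1, other filters and fold limits, unadjusted p, a replicate block, fits leaving out 1 library each, and, chosen after seeing the data, GC offsets per library (13619 tested genes had a GC value).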

Additional observations from a re-analysis of the deposited data

How the results depend on the processing

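None of the values reversed between called directions under the 17 alternatives. The fold limit moved the counts most: with a limit of 2, 2297 genes, 1 member higher (KPNA4) and 0 members lower were called, and with no limit 8139 genes, 13 members higher and 10 lower, both by the construction of the limit. With GC offsets, added after seeing the data, 3 members were called higher and 5 lower, and the members' median was -0.03. Of all tested genes, 4807 were then called, 2360 higher and 2447 lower, with a median of -0.01. With each library left out, 4587 to 5025 genes, 3 to 6 members higher and 3 to 4 members lower were called, and the median was 0.03 to 0.08. The lowest number, 3, came without shBry replicate 2, when TNPO1 (0.50) and NUP35 (0.58) fell under the fold limit. XPO4 and IPO8 were each gained in 3 of these 6 fits. Normalization without TMM, RLE size factors, DESeq2, limma-voom, both filters and unadjusted p each called the same 8 members, with 4432 to 5334 genes called. Deviations of same-numbered replicates from their group means correlated at 0.183, -0.084 and -0.0282. With 3 libraries per group, these values cannot tell whether same-numbered libraries were prepared together, and the labels do not say. A replicate block gave 4914 genes and 5 and 3 members, with no member call changed. Depth limits KPNA7 and NUP210L, at 3 counts or fewer, and leaves KPNA5 and NUP62CL with standard errors of 0.39 and 0.24.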

Other observations

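NUP50-AS1, the antisense neighbour of NUP50, is not among the members. It was called higher in shBry with a log2 fold change of 1.19 (SE 0.10, edgeR adjusted p = 1.8e-07), at 44.6, 55.5 and 52.6 CPM in shNC and 111, 114 and 124 CPM in shBry. The groups did not overlap, while NUP50 itself had a log2 fold change of 0.00. The deposited counts do not state whether strand was used, and the annotation used here places no exon base of NUP50 in another gene.

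Of the pseudogene symbols left out by the rule, NUP50P2 had 12 to 42 counts per library and the others at most 3. IPO5P1, a processed copy of IPO5, was called lower with -0.70 (edgeR adjusted p = 0.0039) at 5.43 ± 0.219 CPM in shNC and 3.34 ± 0.143 CPM in shBry (SD, n = 3), beside 0.02 for IPO5. The readthrough gene IPO11-LRRC70 had -0.19 (adjusted p = 0.37), beside -0.02 for IPO11.

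RGPD5, which shares stretches with RANBP2, was called higher with 1.46 (edgeR adjusted p = 0.0054), from 0.886 ± 0.4 to 2.44 ± 0.993 CPM (SD, n = 3). The mRNA helicase gene DDX39B is listed at 0 in all 6 libraries. Of its 50-base stretches 65.8% are shared, and the readthrough gene ATP6V1G2-DDX39B overlaps 29.7% of its exon bases on the same strand. Whether its reads were assigned elsewhere was not tested. Among the nuclear envelope genes on the list of other transport genes, TMEM33 had 0.48 (adjusted p = 0.0026), TOR1B 0.41 (adjusted p = 0.00098) and TOR1A 0.37 (adjusted p = 0.0028), each with no overlap between groups and within the fold limit, while TOR1AIP1 had -0.16 (adjusted p = 0.18) with overlapping groups.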
